A study of Drosophila melanogaster with 9 samples.

Results

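The comparison set the fourth serial allograft (T3) of a Drosophila melanogaster brain tumour against sorted cells of the primary tumour. It compared 6 of the 9 RNA-seq libraries of the study. The 3 libraries of each group were taken by their labels, and no measured value entered the choice. Of 16727 gene symbols counted, 9082 had enough reads to be tested. Both groups carried clones made with the actin flip-out driver, which switches a transgene on in a cell and its descendants, and both overexpressed UAS-HA-mγ and UAS-HA-dpn, epitope-tagged forms of E(spl)mγ and deadpan (dpn). The primary group held GFP-positive cells from 3rd instar larvae, 4 days after the clones were induced, with 150 larval brains pooled per replicate. These brains were dissected by hand, dissociated with collagenase and sorted by flow cytometry. The T3 group held GFP-positive masses from 25 adult w1118 host flies per replicate, 8 to 10 days after the 4th transplantation, and these masses were not sorted. The actin driver is not restricted to neural stem cells. Dissociation, sorting, host stage and growth time all differ between the groups, so their parts in any difference cannot be told apart. In bulk RNA, fewer cells of a type and less RNA per cell cannot be told apart either. Each library is a pool of animals. The 3 libraries of the first allograft (T0) were in the same fit. The p-values therefore rest on the spread among all 9 pools and their handling.

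Larval neuroblasts are the neural stem cells of the fly. They divide asymmetrically, renewing themselves while passing the factors Prospero and Brat to a smaller daughter that goes on to make neurons or glia. HES proteins such as Deadpan and E(spl)mγ act downstream of Notch and repress genes of differentiation, so that their overexpression in larval brains gives masses of neuroblast-like cells. Normal neuroblasts also age: early ones carry the RNA-binding protein Imp and the transcription factor Chinmo, later ones carry Syncrip (Syp) and respond to the moulting hormone ecdysone before they stop dividing. Serial transplantation into adult abdomens takes tumour cells out of the larval schedule and into a host with its own blood cells, fat body and immune response.

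The 6 libraries held 7932772 to 14093032 counts each. Across genes, which are not independent replicates, log2 CPM (CPM is a count scaled to a common library size, here with TMM factors) correlated at 0.980 to 0.987 among the primary libraries, 0.980 to 0.981 among the T3 libraries and 0.828 to 0.879 between the groups. Neuroblast markers were strong in both groups. The sum of dpn, ase, mira, wor, insc, grh and CycE was 3889 to 4416 CPM in primary and 3900.2 to 4246 in T3. The even sum joins 1 gene called higher in T3 (mira) and 2 called lower (dpn and ase), and dpn is also a driven gene. The 5 neuron markers (elav, nSyb, Syt1, brp, fne) summed to 908 to 1573 CPM in primary and 114 to 164 CPM in T3, and all 5 fell. Both groups therefore carried the neuroblast markers that their labels call for, and the sorted primary cells carried more neuronal RNA. Below, values per library are CPM in the order replicate 1, 2 and 4, in both groups.

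In T3, 2097 genes were higher and 2187 lower than in primary, by edgeR's quasi-likelihood test with a Benjamini-Hochberg adjusted p under 0.05. That is 47.2% of the genes tested, with 23.1% higher and 24.1% lower, and these shares are the background for every list below. The lists were chosen with earlier results of these data known, so a share above the background is no independent support. The median log2 fold change over all genes tested was -0.0003. Large differences were more often losses: 580 called genes were at least 8-fold lower (6.39% of those tested) and 184 at least 8-fold higher (2.03%). At 32-fold the numbers were 234 lower and 37 higher. The 3 libraries of one group lay wholly above those of the other in 57.9% of genes (28.9% higher and 29.0% lower in T3). In all, 68 genes had 0 counts in all 3 T3 libraries with at least 30 in primary, and 22 genes had the reverse. The authors' deposited table calls 4316 genes for the same comparison, 48.2% of those it tests, of which 4146 were called here and 0 had the opposite sign.

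**Figure D1:**
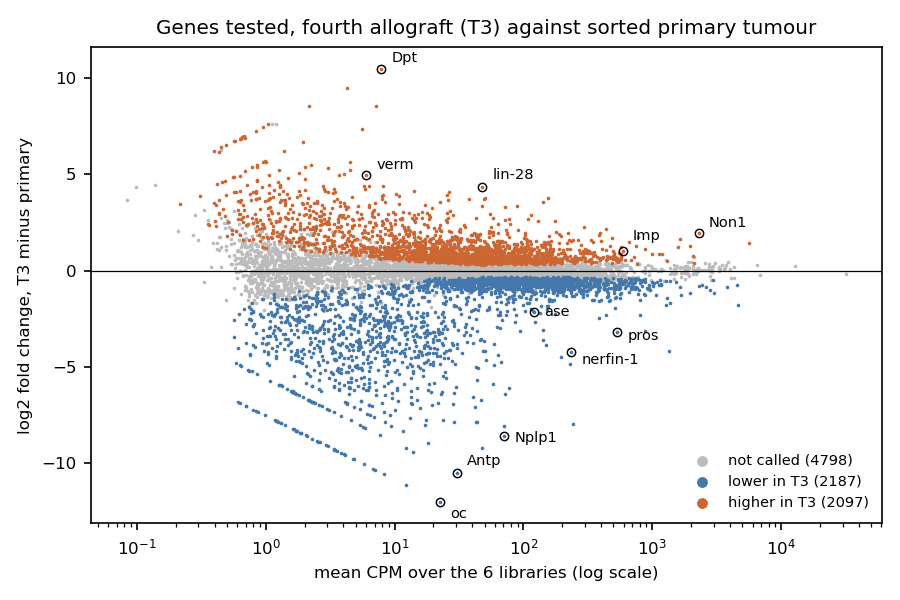
Each point is 1 of the 9082 genes tested, with its mean CPM over the 6 libraries on a log axis and its log2 fold change, T3 minus primary, on the other axis. The 2097 higher genes lie mostly within a few log2 units of 0, while the lower genes reach further down. The diagonal streaks are genes with 0 or few counts in a group, whose fitted fold change is no bound.

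The driven genes themselves were lower in T3. Deadpan (dpn, arm 2R, 8228971 to 8232330 in dm6) stood at 702, 601 and 615 CPM in primary and 245, 223 and 262 CPM in T3. No T3 library reached the lowest primary one (log2 fold change -1.39 ± 0.20 (SE), adjusted p = 1.43e-04). E(spl)mgamma-HLH (3R, 25999851 to 26000761) stood at 482, 494 and 534 CPM in primary and 169.6, 193 and 172 CPM in T3. Its groups also lay apart (log2 fold change -1.50 ± 0.19 (SE), adjusted p = 7.45e-05). The counts join transgene and endogenous transcripts, which cannot be told apart here. The eye colour gene w, which the w1118 hosts lack in function and many fly transgenes carry as a marker, was at 429, 403 and 457 CPM in primary and 351, 391 and 448 CPM in T3 and was not called (-0.11 ± 0.15, adjusted p = 0.560).

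Of 15 neuroblast identity genes, 2 were higher and 2 lower, and the median log2 fold change was 0.36. The count higher was 1 without primary replicate 2, primary replicate 4 or T0 replicate 3, and with RLE factors. The count lower was 4 without T3 replicate 1, with DESeq2, in the 6-library fit and with the replicate block. The clearest change was in asense (ase, X, 460747 to 463176), a proneural gene that marks type I neuroblasts and is absent from type II neuroblasts. Its values were 194, 172 and 220.1 CPM in primary and 60.0, 39.4 and 34.5 CPM in T3. Every T3 library was below every primary library (log2 fold change -2.12 ± 0.21 (SE), adjusted p = 1.10e-05). String (stg), the Cdc25 phosphatase that drives entry into mitosis, had a mean ± SD over 3 libraries that fell from 208 ± 56.1 to 84.3 ± 22.3 CPM (-1.30 ± 0.27, adjusted p = 0.00213).

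Miranda (mira), the adaptor that carries Prospero to the daughter cell, had 1885, 1872 and 1744 CPM in primary and 2437, 2428 and 2388 CPM in T3. The groups lay apart and the difference was small (log2 fold change 0.40 ± 0.15 (SE), adjusted p = 0.0458), and the call was lost when any primary or T3 library was left out (adjusted p = 0.0596 to adjusted p = 0.139). It was also lost without T0 replicate 3 (adjusted p = 0.0599), with RLE factors (adjusted p = 0.0543), with no filter (adjusted p = 0.145) and with the replicate block (adjusted p = 0.0630). Scute (sc), a proneural factor, rose from low levels, 0.949, 0.161 and 1.501 CPM in primary to 5.21, 5.79 and 4.70 CPM in T3 (2.59 ± 0.53, adjusted p = 0.00176; 3.19 without primary replicate 4). The related lethal of scute, l(1)sc, had 17.4, 15.4 and 21.2 CPM in primary and 14.9, 6.42 and 3.42 CPM in T3, with T3 replicate 1 near the primary level, and was not called (adjusted p = 0.0608), but was called without that library (log2 fold change -1.88). Worniu (wor), a Snail family factor of neuroblasts, was at 479.9, 405 and 541 CPM in primary and 408, 307 and 318 CPM in T3 and was not called either (adjusted p = 0.0644, or 0.0444 as adjusted p without T3 replicate 1 and 0.0273 without T0 replicate 2). Worniu was also called in the 6-library fit (adjusted p = 0.0405), with DESeq2 (adjusted p = 0.0303) and with the replicate block (adjusted p = 0.0384).

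Type II neuroblasts, which make transit-amplifying progenitors, are known for low ase, for pointed (pnt) and Sp1, and for progeny that express erm, ham and opa. Of the 7 genes of that list, 3 rose and 3 fell. The zinc finger gene Sp1 rose from 226, 163 and 203 to 384, 323 and 467 CPM (log2 fold change 0.99 ± 0.18 (SE), adjusted p = 7.37e-04), and the ETS factor gene pnt from 353, 256 and 291 to 478, 412 and 538 CPM (0.67 ± 0.17, adjusted p = 0.00644). Both had all T3 libraries above all primary ones. The progenitor genes opa (36.5 to 6.83 CPM in mean, log2 fold change -2.42), ham (99.0 to 24.8 CPM, -1.99) and erm (64.5 to 29.1 CPM, -1.14) fell. The orphan receptor gene tll, which lies upstream of type II identity, was at 159.6, 143 and 195 CPM in primary and 192, 149.6 and 175 CPM in T3, overlapped between the groups and was not called (0.06 ± 0.16, adjusted p = 0.792).

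Of 17 genes of the asymmetric division machinery, 3 rose, 4 fell, and the median log2 fold change was -0.23. Staufen (stau), an RNA-binding protein that carries prospero RNA with Miranda, rose from 891, 674 and 529 to 1360.2, 1112 and 1394 CPM (log2 fold change 0.88 ± 0.22 (SE), adjusted p = 0.00633). The tumour suppressor gene l(2)gl rose from 396 ± 46.9 to 596 ± 68.5 CPM (0.59 ± 0.15, adjusted p = 0.00756). The fate determinants moved the other way. Prospero (pros, 3R, 11328480 to 11407627), the homeodomain factor that ends stem cell division, stood at 1285, 664 and 936 CPM in primary and 118, 95.1 and 107 CPM in T3. The highest T3 value was well under the lowest primary value (log2 fold change -3.17 ± 0.25 (SE), adjusted p = 1.60e-06). Brat, a translational repressor inherited by the same daughter, fell from 1318, 782 and 802 to 435, 442 and 616 CPM (-0.96 ± 0.22, adjusted p = 0.00358), and the G protein gene Galphai, part of the cortical polarity complex, from 364 ± 10.7 to 216 ± 12.1 CPM (-0.75 ± 0.16, adjusted p = 0.00276). The atypical kinase gene aPKC and the determinant gene numb were not called (0.32 with adjusted p = 0.114, and -0.37 with adjusted p = 0.0726). Without T3 replicate 2 aPKC was called (0.48, adjusted p = 0.0271), and without T3 replicate 4 numb was (-0.51, adjusted p = 0.0285).

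**Figure D2:**
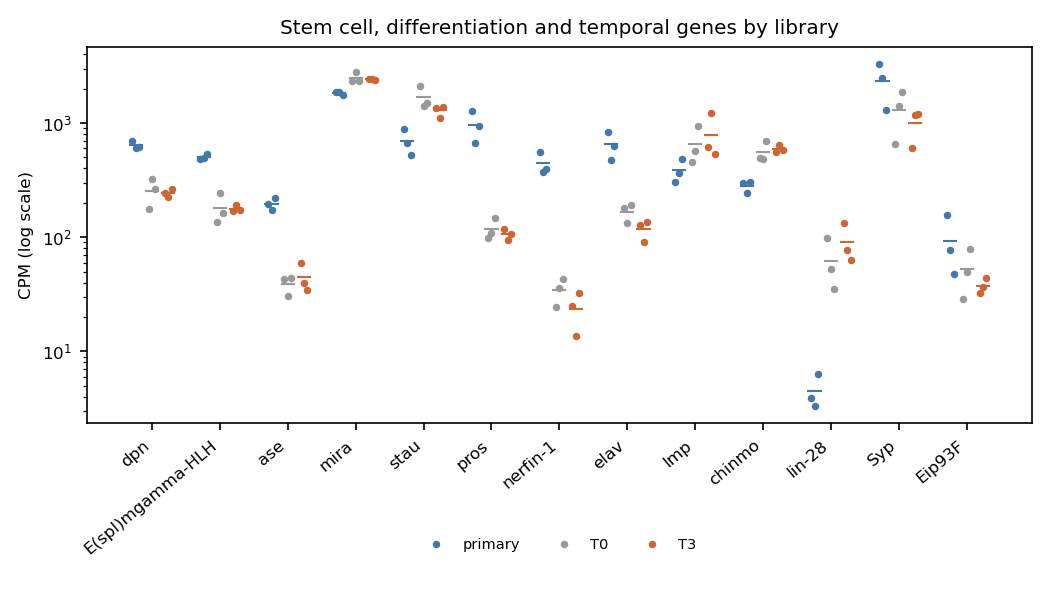
CPM on a log axis for 13 stem cell, differentiation and temporal genes, with 1 point per library and a line at the mean of the 3 libraries of primary, T0 (the first allograft) and T3. In T3 the points for dpn, ase, pros, nerfin-1 and elav lie below those of primary and those for chinmo and lin-28 above, while Syp and Eip93F points come close to each other.

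Notch pathway genes were lower beside the driven HES genes. Of 22 tested, 14 were lower and 1 higher, against 24.1% and 23.1% of all genes, with a median log2 fold change of -0.67. Among ligands, Ser went from 16.6, 8.31 and 7.69 to 0.660, 0.503 and 0.513 CPM (log2 fold change -4.24 ± 0.42 (SE), adjusted p = 1.05e-05). Its T3 values all sat below 1 CPM. The E3 ligase gene neur, needed in the cell that sends the signal, fell from 292, 186 and 244 to 91.0, 78.4 and 85.9 CPM (-1.50 ± 0.19, adjusted p = 7.26e-05), and the co-activator gene mam from 212, 141 and 143 to 52.7, 55.1 and 73.5 CPM (-1.45 ± 0.20, adjusted p = 9.60e-05). Direct target genes fell as well: Hey, a HES-related factor of newborn neurons, from 19.6, 18.2 and 20.3 to 0.660, 0.755 and 1.71 CPM (-4.19 ± 0.39, adjusted p = 6.48e-06), and E(spl)m7-HLH from 13.9, 11.9 and 13.4 to 2.57, 2.64 and 1.45 CPM (-2.56 ± 0.31, adjusted p = 4.34e-05). The HES gene h, at 0.365, 1.13 and 1.31 CPM in primary and 7.04, 1.64 and 1.88 CPM in T3, did not overlap between the groups, with T3 replicate 1 the highest, and was not called (1.94 ± 0.80, adjusted p = 0.0629). It was called without T3 replicate 2, T3 replicate 4, T0 replicate 2 or T0 replicate 3, with 2 genes higher in each case, as with DESeq2, no filter or the 6-library fit. The 1 gene called higher was mib1, another E3 ligase of ligand endocytosis, at 77.5, 81.9 and 70.9 CPM in primary and 120.1, 129 and 125 CPM in T3 (0.70 ± 0.12, adjusted p = 4.32e-04). Neuronal markers fell in the same libraries, by the values given above, and their part in the Notch result was not tested.

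Among temporal genes of the early neuroblast, lin-28, chinmo and Imp were higher in T3. The lin-28 gene (3L, 5654681 to 5657384), which encodes an RNA-binding protein that is active in early development, stood at 3.87, 3.31 and 6.38 CPM in primary and 133, 77.5 and 63.0 CPM in T3. The lowest T3 value was far above the highest primary value (log2 fold change 4.35 ± 0.43 (SE), adjusted p = 9.46e-06). Chinmo (2L, 1651258 to 1704682), a BTB zinc finger factor of early-born neurons and young neuroblasts, had 296, 244 and 307 CPM in primary and 555, 637 and 575 CPM in T3. These groups also lay apart (log2 fold change 1.06 ± 0.17 (SE), adjusted p = 3.57e-04). Imp (X, 10787869 to 10824277) had 304, 368 and 481 CPM in primary and 618, 1226 and 531 CPM in T3, with T3 replicate 2 well above the other T3 libraries (log2 fold change 1.04 ± 0.33 (SE), adjusted p = 0.0212). Without that library Imp was not called (0.59, adjusted p = 0.120), nor was it without primary replicate 1 (adjusted p = 0.0782) or primary replicate 2 (adjusted p = 0.0655).

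Other early factors did not rise. Castor (cas), an early temporal transcription factor, fell from 643, 547 and 622 to 341, 239 and 294 CPM (-1.05 ± 0.24, adjusted p = 0.00381), and Krüppel (Kr) had 40, 29 and 47 counts in primary and 1, 1 and 0 in T3, a ratio of primary to T3 CPM of 52.5 (95% counting interval 14.2 to 439). The switching factor svp was at 328, 193 and 268 CPM in primary and 279, 302 and 429.7 CPM in T3 and was not called (0.36 ± 0.21, adjusted p = 0.185). In all, 3 of 6 tested early genes rose and 2 fell, or 2 rose without primary replicate 1, primary replicate 2 or T3 replicate 2.

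The late temporal and ecdysone list fell: 7 of 12 genes were lower and 2 higher, with a median log2 fold change of -1.28. Syp, the late RNA-binding protein that opposes Imp, had 3283, 2497 and 1295 CPM in primary and 609, 1177 and 1202 CPM in T3. The groups did not overlap, although primary replicate 4 came close to T3 (log2 fold change -1.24 ± 0.40 (SE), adjusted p = 0.0239), and the call was lost without primary replicate 1 (-0.90, adjusted p = 0.122), primary replicate 2 (-1.20, adjusted p = 0.0623) or T3 replicate 1 (-0.98, adjusted p = 0.0926). Eip93F, an ecdysone-induced factor that ends neuroblast life, had 155, 77.6 and 47.5 CPM in primary and 32.3, 36.6 and 44.0 CPM in T3 (log2 fold change -1.31 ± 0.40 (SE), adjusted p = 0.0170), and was likewise not called without primary replicate 1 (-0.71, adjusted p = 0.124) or T3 replicate 1 (-1.21, adjusted p = 0.0618).

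Other ecdysone response genes fell further. The ETS factor gene Eip74EF went from 31.8, 13.4 and 7.13 to 0.440, 0.252 and 0.171 CPM (-5.83 ± 0.63, adjusted p = 1.92e-05; -5.05 without primary replicate 1). The nuclear receptor gene Hr4 went from 94.0, 13.5 and 12.5 to 1.83, 2.52 and 2.74 CPM (-4.09 ± 0.72, adjusted p = 6.91e-04; -2.43 without primary replicate 1). The zinc finger gene mamo went from 167, 96.3 and 78.3 to 2.71, 1.89 and 1.11 CPM (-5.87 ± 0.57, adjusted p = 8.17e-06). Primary replicate 1 was the highest of its group for Syp, Eip93F, Eip74EF, Hr4 and mamo. The hormone receptor gene EcR itself rose, from 93.8 ± 10.98 to 176 ± 31.3 CPM (0.91 ± 0.16, adjusted p = 6.52e-04), as did the nuclear receptor gene ftz-f1, from 94.1 ± 10.5 to 154 ± 16.3 CPM (0.72 ± 0.15, adjusted p = 0.00210), while usp, the partner of EcR, had 79.3, 64.5 and 71.3 CPM in primary and 63.1, 59.9 and 68.3 CPM in T3 and was not called.

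Genes that carry cells from progenitor to neuron were low in T3. In the differentiation switch list, 6 of 9 genes fell and 0 rose, with a median log2 fold change of -1.59. Nerfin-1 (3L, 909112 to 912319), a zinc finger factor that holds young neurons in their differentiated state, stood at 563, 370.1 and 397 CPM in primary and 24.9, 13.7 and 32.5 CPM in T3. The loss was seen in all 3 T3 libraries (log2 fold change -4.21 ± 0.31 (SE), adjusted p = 1.25e-06). The homeodomain gene zfh1 fell from 34.8, 19.1 and 27.6 to 2.64, 2.52 and 2.57 CPM (-3.39 ± 0.29, adjusted p = 3.22e-06), and the bHLH gene tap from 247, 217 and 244 to 91.8, 79.9 and 62.9 CPM (-1.59 ± 0.18, adjusted p = 2.34e-05). The BTB factor gene lola, which maintains neuronal fate, was at 2431, 1804 and 1994 CPM in primary and 1596, 1319 and 1718 CPM in T3 and was not called (adjusted p = 0.0639). It was called with DESeq2 (adjusted p = 0.0163) and without T0 replicate 2, which enters the shared estimate of spread (adjusted p = 0.0471).

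Of 26 pan-neuronal and synaptic genes, 20 were lower and 2 higher (median log2 fold change -3.07). The RNA-binding protein gene elav, the standard neuron marker, had 841, 476 and 629.5 CPM in primary and 127, 90.0 and 136 CPM in T3 (log2 fold change -2.46 ± 0.24 (SE), adjusted p = 8.15e-06). Synaptic vesicle genes fell further: Syt1, the calcium sensor of release, from 109.7, 59.4 and 70.6 to 1.10, 0.629 and 0.684 CPM (-6.57 ± 0.36, adjusted p = 1.58e-07), nSyb from 118, 83.8 and 96.2 to 3.74, 2.52 and 5.30 CPM (-4.66 ± 0.24, adjusted p = 1.15e-07) and Rab3 from 55.1, 44.5 and 43.3 to 3.08, 2.26 and 2.57 CPM (-4.15 ± 0.22, adjusted p = 1.25e-07). For these genes T3 held a few CPM at most. Gad1, which makes the transmitter GABA, had 661, 694 and 746 counts in primary and 1, 0 and 7 in T3 (-7.86 ± 0.46, adjusted p = 2.31e-07; -9.99 without T3 replicate 4).

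Calcium channel gene cac went against the list, rising from 119, 89.7 and 87.2 to 266, 205.4 and 196 CPM (log2 fold change 1.17 ± 0.20 (SE), adjusted p = 6.11e-04). The vesicle priming gene unc-13 also rose, from 449, 302 and 321 to 673, 523 and 544 CPM (0.70 ± 0.26, adjusted p = 0.0414), but was not called without primary replicate 2 (adjusted p = 0.137), primary replicate 4 (adjusted p = 0.126), T3 replicate 1 (adjusted p = 0.131), T3 replicate 2 (adjusted p = 0.0526) or T3 replicate 4 (adjusted p = 0.0578).

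Neuropeptide genes were nearly silent in T3. All 13 tested were lower, with a median log2 fold change of -6.20, or -5.81 with genes at 0 counts set to their bound. The 16 genes of the list summed to 213, 281 and 257 CPM in primary and 6.45, 3.77 and 4.36 CPM in T3. Nplp1, a precursor of peptides made in a few larval neurons, had 135, 155 and 136 CPM in primary and 0.660, 0 and 0.257 CPM in T3 (-8.60 ± 0.33, adjusted p = 1.44e-08; -9.76 without T3 replicate 1). Dh31 had 140, 193 and 176 counts in primary and 0 in every T3 library, so its CPM was at least 154-fold lower in T3, taking 3 counts in the group of libraries as the floor. Pdf, the clock neuron peptide, had 22, 82 and 82 counts and 0 in T3 (at least 56.1-fold lower). Proc fell from 24.2, 28.2 and 26.7 to 0.220, 0.377 and 0.0855 CPM (-6.89 ± 0.42, adjusted p = 3.28e-07).

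Axon guidance and adhesion genes followed, with 15 of 22 lower and 1 higher (median log2 fold change -1.19). The count higher was 2 without primary replicate 1 or T3 replicate 2, with no filter, with DESeq2 and with the replicate block, and 0 without primary replicate 2, primary replicate 4 or T3 replicate 4. The receptor gene robo3 went from 62.6, 40.7 and 40.7 to 1.17, 1.13 and 1.45 CPM (-5.24 ± 0.28, adjusted p = 1.35e-07), the netrin gene NetB from 114, 76.7 and 85.7 to 4.25, 4.65 and 6.59 CPM (-4.15 ± 0.22, adjusted p = 1.35e-07), and the adhesion gene Dscam1 from 316, 157 and 189 to 48.0, 51.5 and 43.3 CPM (-2.21 ± 0.26, adjusted p = 3.94e-05). In each the groups lay apart. The netrin receptor gene fra rose from 340.3, 221 and 229 to 398, 376 and 402 CPM (0.57 ± 0.19, adjusted p = 0.0287). Its call was lost without primary replicate 2 (adjusted p = 0.111), primary replicate 4 (adjusted p = 0.109), T3 replicate 1 (adjusted p = 0.0666) or T3 replicate 4 (adjusted p = 0.0627).

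Glial genes were more often lower, with 5 of 9 lower and 1 higher, against 24.1% and 23.1% of all genes. The 4 glia markers (repo, moody, nrv2, Gs2) summed to 260.2 to 353 CPM in primary and 192 to 216 CPM in T3. Of these, 2 were called lower, and moody was not called (adjusted p = 0.924). All 12 genes of the list summed to 551, 594 and 739 CPM in primary and 634, 558 and 801 CPM in T3, and these sums overlapped. The defining glial factor repo was low in both groups, at 6.86, 7.34 and 16.5 CPM in primary and 6.45, 9.06 and 2.57 CPM in T3, and was not called (-0.77 ± 0.45, adjusted p = 0.177). Astrocyte gene alrm fell from 9.64, 19.5 and 42.7 to 0.147, 1.64 and 0.684 CPM (-4.99 ± 0.76, adjusted p = 2.33e-04; -5.86 without T3 replicate 2 and -4.25 without primary replicate 4). Gs2, a glutamine synthetase of glia, fell from 3.14, 9.92 and 19.5 to 0.513, 0.881 and 0.257 CPM (-4.34 ± 0.70, adjusted p = 3.42e-04; -3.60 without primary replicate 4), with primary replicate 4 the highest for all of repo, alrm and Gs2. The glutamate transporter gene Eaat1, also a glial gene, rose from 158, 182 and 238 to 334, 271 and 492 CPM (0.93 ± 0.23, adjusted p = 0.00594).

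**Figure D3:**
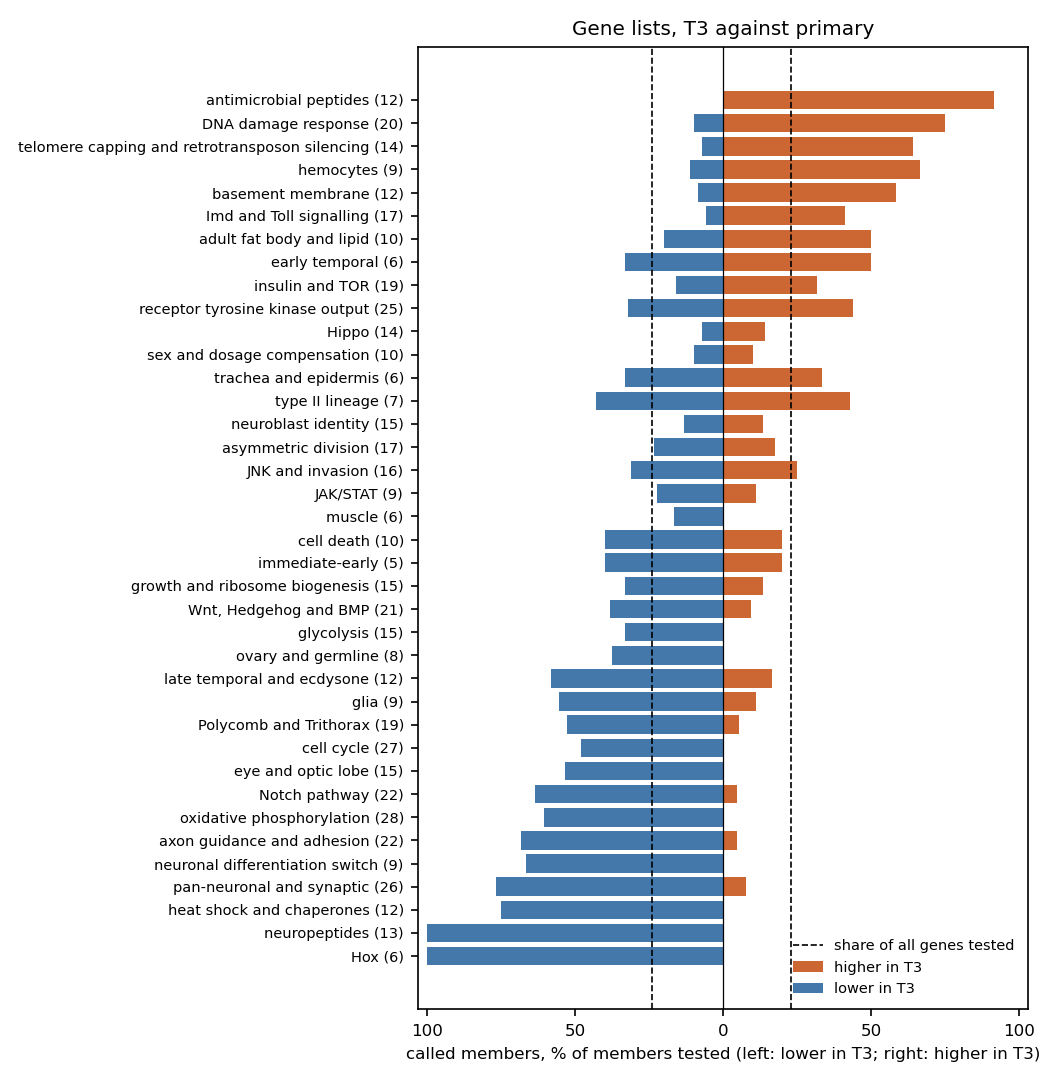
For each list with at least 5 members tested (number in brackets), the bar to the right gives the percentage of members called higher in T3 and the bar to the left the percentage called lower. Dashed lines mark the shares over all genes tested, 23.1% higher and 24.1% lower. Hox and neuropeptide genes reach 100% lower, and antimicrobial peptide genes stand furthest to the right with 11 of 12 higher.

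Hox genes, which give cells their address along the body, were nearly absent from T3. In the same libraries neuronal markers fell, by the values given above. Their part in the Hox result, and in the patterning and eye gene results below, was not tested. All 6 Hox genes tested were lower (median log2 fold change -7.30, or -6.80 with zeros at the bound), and the list summed to 134, 80.4 and 81.1 CPM in primary and 0.513, 0.377 and 0.0855 CPM in T3. Antp (3R, 6896253 to 6999228), the thoracic Hox gene, had 1051, 652 and 565 counts in primary and 0, 0 and 1 in T3, a ratio of primary to T3 CPM of 2054 (95% counting interval 368 to 81160.0). That was 1 read in 3 libraries. The abdominal gene abd-A (3R, 16807214 to 16830049) had 397, 118 and 78 counts against 1, 0 and 0, a ratio of 537 (95% counting interval 96.0 to 21246), and Ubx 206, 138 and 70 against 2, 1 and 0, a ratio of 125 (95% counting interval 42.5 to 608). Each T3 count of Antp and abd-A came from 1 library, and without it the group was at 0. The fitted log2 fold change of abd-A, which depends on the prior count, moved from -8.56 to -7.67 without primary replicate 1 or -10.42 without T3 replicate 1, and that of Ubx from -6.76 to -7.44 without T3 replicate 1.

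Other homeodomain and patterning genes made up much of the list of largest losses. Orthodenticle (oc, X, 8630159 to 8650681), a head gap gene, had 713, 462 and 477 counts in primary and 0 in all T3 libraries, and was at least 499-fold lower. Drop (Dr, 3R, 29556386 to 29565244), which specifies dorsal neuroblast columns, had 350, 283 and 275 counts and 0 (at least 274-fold lower). No T3 library held a read of either. The terminal gap gene hkb (156, 130 and 200 counts in primary) and the homeodomain gene Gsc (143, 112 and 164) were also at 0 in T3, at least 147-fold and at least 126-fold lower. The head gene ems had 558, 356 and 408 counts against 0, 2 and 0 (ratio 599 (95% counting interval 165 to 4948)), the Iroquois gene mirr 442, 200 and 266 against 0, 0 and 1 (ratio 822 (95% counting interval 147 to 32514)), and the Bar gene B-H1 196, 131 and 113 against 1, 0 and 0 (ratio 398 (95% counting interval 71.1 to 15774)). The T3 counts of ems, mirr and B-H1 again came from 1 library each. Another Iroquois gene, caup, which stood in the gut list although it is a homeobox gene, had 112, 79 and 108 counts and 0 (at least 90.3-fold lower). The secreted patterning signal wg had 79, 54 and 53 counts and 0 (at least 56.1-fold lower).

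Of 15 eye and optic lobe genes, 8 fell and 0 rose, or 1 rose without T3 replicate 1. The Pax6 genes toy and ey went from 111, 79.9 and 89.5 to 1.39, 0.881 and 0.257 CPM (-6.74 ± 0.40, adjusted p = 2.66e-07; -7.46 without T3 replicate 1) and from 49.2, 33.1 and 37.3 to 1.47, 1.64 and 3.08 CPM (-4.26 ± 0.30, adjusted p = 7.40e-07). Dachshund (dac), which acts beside them in eye and mushroom body development, fell from 60.0, 40.99 and 49.8 to 2.27, 1.64 and 4.62 CPM (-4.11 ± 0.44, adjusted p = 1.70e-05). These 3 genes stayed at a few CPM in T3. The forkhead gene slp2, a temporal factor of optic lobe neuroblasts, had 179.6, 139.9 and 167 CPM in primary and 42.3, 63.7 and 139.7 CPM in T3. Its highest T3 library lay just below primary, and the gene was not called (adjusted p = 0.0533). Without that library, replicate 4, it was called (-1.62, adjusted p = 0.00227), as it was without T0 replicate 2 (adjusted p = 0.0257). Calls also came in the 6-library fit (adjusted p = 0.0309), with no filter, with limma-voom and with the replicate block.

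**Figure D4:**
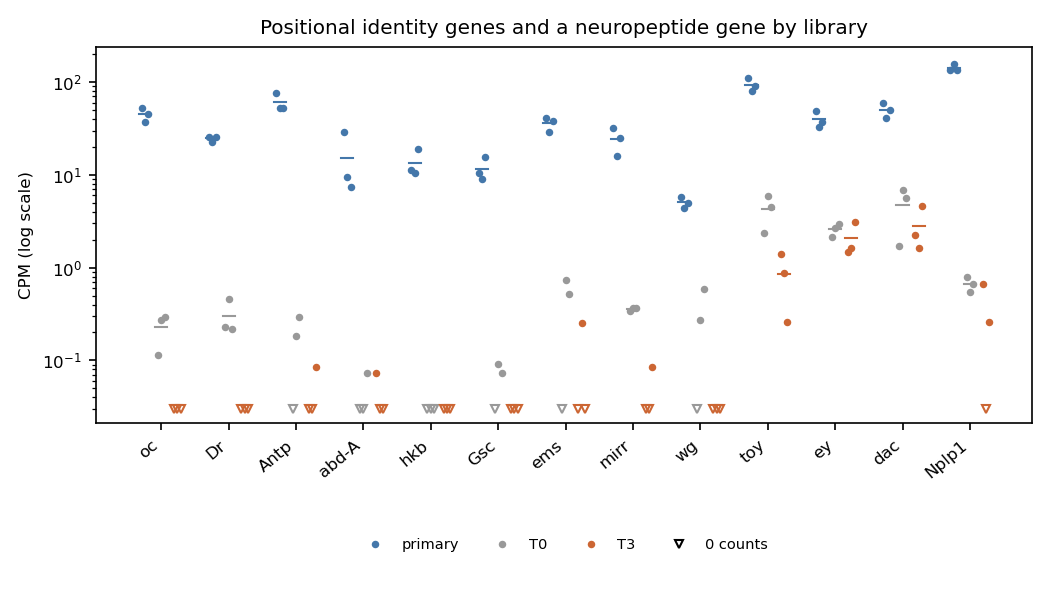
CPM on a log axis for 12 positional identity genes and the neuropeptide gene Nplp1, with 1 point per library of primary, T0 and T3, open triangles at the bottom for libraries with 0 counts, and a line at the mean where no library of a group is at 0. All 3 primary libraries of each gene lie far above the T3 libraries, and oc, Dr, hkb, Gsc and wg have 0 counts in every T3 library.

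Receptor tyrosine kinase genes moved in both directions, with 11 of 25 higher and 8 lower. Among ligands, the EGFR ligand genes vn and spi rose, vn from 2.85, 4.12 and 4.60 to 30.7, 21.1 and 24.2 CPM (log2 fold change 2.73 ± 0.36 (SE), adjusted p = 8.12e-05) and spi from 248, 249.7 and 265 to 589, 521 and 572 CPM (1.14 ± 0.17, adjusted p = 2.40e-04). All T3 libraries were higher for both. The negative regulator gene sty (sprouty), itself a target of the pathway, rose from 124, 101 and 131 to 277, 240.4 and 250.1 CPM (1.11 ± 0.16, adjusted p = 1.53e-04), with pnt, the nuclear effector described above. The Alk receptor and its ligand fell: the ligand gene jeb went from 48.8, 27.7 and 40.4 to 0.513, 0.252 and 0.0855 CPM (-6.98 ± 0.44, adjusted p = 4.06e-07; -7.88 without T3 replicate 1) and Alk from 66.2, 35.3 and 45.3 to 0.953, 1.26 and 0.941 CPM (-5.56 ± 0.36, adjusted p = 4.66e-07). The FGF receptor gene htl and its ligand gene ths also fell (2.74 to 0.352 and 8.31 to 1.38 CPM in mean, log2 fold changes -2.83 and -2.59).

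In the insulin and TOR list 6 of 19 rose and 3 fell. Thor, the 4E-BP translation repressor that foxo activates, rose from 54.8, 40.7 and 47.9 to 197, 138 and 122 CPM (log2 fold change 1.67 ± 0.21 (SE), adjusted p = 5.83e-05). ImpL2, a secreted antagonist of insulin-like peptides, fell from 444, 232 and 198 to 109, 50.8 and 20.2 CPM (-2.28 ± 0.49, adjusted p = 0.00246; -3.04 without T3 replicate 1), and its T3 libraries spread widely. The count of 6 rested partly on single libraries, and was 3 without primary replicate 2 or without T3 replicate 1. JAK/STAT had 1 of 9 higher, the regulator apt (354 to 657 CPM in mean, 0.89 ± 0.16, adjusted p = 7.64e-04), and 2 lower (1 without primary replicate 1 or T3 replicate 1, and 0 without T3 replicate 2), while upd3, a ligand of damaged tissue, had 1, 4 and 3 counts in primary and 0, 1 and 1 in T3 and was too low to test. In Hippo signalling 2 of 14 rose and 1 fell, sav rising from 14.8, 17.5 and 16.7 to 34.3, 30.6 and 33.8 CPM (1.01 ± 0.14, adjusted p = 1.46e-04) and the factor gene sd falling from 362, 257 and 287 to 179, 146 and 199.6 CPM (-0.79 ± 0.18, adjusted p = 0.00355). The count of 2 was 4 without primary replicate 1 and 1 without primary replicate 2, primary replicate 4, T3 replicate 2 or T3 replicate 4, and the count of 1 was 2 without primary replicate 4 or T0 replicate 3.

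In the Wnt, Hedgehog and BMP list 8 of 21 fell and 2 rose. Beside wg, the ligand gene Wnt4 fell from 53.5, 36.6 and 39.97 to 6.45, 2.39 and 8.72 CPM (-2.85 ± 0.38, adjusted p = 8.76e-05) and the receptor gene fz from 28.6, 16.5 and 14.3 to 4.33, 3.52 and 1.80 CPM (-2.62 ± 0.37, adjusted p = 1.38e-04). The BMP receptor gene tkv rose from 56.1, 43.7 and 49.8 to 97.8, 73.2 and 102 CPM (0.87 ± 0.15, adjusted p = 5.43e-04) and the Hedgehog effector gene ci from 15.8, 14.4 and 20.3 to 30.1, 29.1 and 40.3 CPM (0.98 ± 0.23, adjusted p = 0.00381).

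Among JNK and invasion genes, 4 of 16 rose and 5 fell, or 3 fell without primary replicate 1, T3 replicate 2, T0 replicate 3 or T0 replicate 4. The ETS gene Ets21C, a JNK target in tumours, rose from 10.0, 8.47 and 9.38 to 18.6, 21.1 and 24.4 CPM (log2 fold change 1.20 ± 0.24 (SE), adjusted p = 0.00139), and the Fos gene kay from 54.8, 36.6 and 50.9 to 105, 84.5 and 87.1 CPM (0.96 ± 0.17, adjusted p = 7.96e-04). The TNF ligand gene egr fell from 58.6, 44.5 and 58.0 to 27.9, 26.0 and 26.9 CPM (-0.99 ± 0.25, adjusted p = 0.00667). Of the matrix metalloproteinase genes, which cut the matrix around cells, Mmp2 rose from 65.6, 56.6 and 71.6 to 100.3, 86.3 and 126 CPM (0.69 ± 0.16, adjusted p = 0.00447), and Mmp1 was at 9.13, 5.33 and 5.63 CPM in primary and 6.53, 3.900 and 7.10 CPM in T3 and was not called (-0.19 ± 0.33, adjusted p = 0.658). Of 10 cell death genes 4 fell and 2 rose, or 1 rose without primary replicate 2 or primary replicate 4. Death activators fell: rpr from 16.5, 8.71 and 16.6 to 1.83, 2.01 and 0.599 CPM (-3.24 ± 0.44, adjusted p = 1.02e-04), skl from 37.3, 21.8 and 38.0 to 3.23, 3.15 and 3.08 CPM (-3.36 ± 0.27, adjusted p = 2.28e-06) and grim from 66.4, 48.5 and 74.6 to 18.4, 15.9 and 9.49 CPM (-2.11 ± 0.26, adjusted p = 5.14e-05). The fourth gene of that locus, hid (listed as W), was low and not called (1.09 to 2.76 CPM in mean, adjusted p = 0.0917; 1.76, adjusted p = 0.0271 without T3 replicate 4). The caspase gene Dcp-1 rose from 47.7, 42.6 and 57.1 to 106, 84.7 and 85.2 CPM (0.91 ± 0.15, adjusted p = 3.68e-04) and the caspase gene Drice (listed as Ice) fell (133 to 79.0 CPM in mean, -0.75 ± 0.20, adjusted p = 0.00794).

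Cell cycle genes were lower or did not pass the test: 13 of 27 fell, 0 rose, and the median log2 fold change was -0.41. Dacapo (dap), the CIP/KIP inhibitor made as cells leave the cycle, fell from 130.1, 93.1 and 110.3 to 21.6, 10.7 and 10.7 CPM (log2 fold change -2.94 ± 0.28 (SE), adjusted p = 7.55e-06). Cdk1 (listed as cdc2) fell from 169, 222 and 197 to 83.3, 91.5 and 102 CPM (-1.09 ± 0.17, adjusted p = 2.87e-04) and Cdk2 (cdc2c) from 85.7, 78.3 and 90.1 to 46.9, 46.0 and 60.2 CPM (-0.73 ± 0.14, adjusted p = 0.00152). The origin gene Orc1 was not called (80.4 to 98.3 CPM in mean, adjusted p = 0.107).

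The growth list held 2 higher and 5 lower genes of 15. Myc (listed as dm), a driver of ribosome synthesis, rose from 286, 202 and 176 to 440.5, 405 and 423 CPM (log2 fold change 0.94 ± 0.22 (SE), adjusted p = 0.00444), while the nucleolar genes nop5 and Nnp-1 fell, from 491 ± 15.2 to 262 ± 11.5 CPM (-0.91 ± 0.17, adjusted p = 0.00113) and from 208 ± 10.1 to 142 ± 1.498 CPM (-0.55 ± 0.13, adjusted p = 0.00466). The count of 5 was 2 with T3 replicate 1 left out, 3 without primary replicate 2 and 3 without T3 replicate 4, but 8 with DESeq2. The count of 2 was 1 without T3 replicate 1. The most abundant genes that rose included Non1, a nucleolar GTPase gene, at 865, 1110.3 and 856 CPM in primary and 3816, 3881 and 3184 CPM in T3 (1.94 ± 0.23, adjusted p = 4.44e-05).

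Genes of energy metabolism that were called were all lower in T3. In oxidative phosphorylation 17 of 28 fell and 0 rose, by small amounts (median log2 fold change -0.47). The ATP synthase gene blw, for example, went from 1024, 1052 and 1100.0 to 487, 657 and 695 CPM (-0.79 ± 0.18, adjusted p = 0.00324), and the cytochrome c gene Cyt-c-p from 150.4, 207 and 252 to 128, 125 and 96.0 CPM (-0.81 ± 0.19, adjusted p = 0.00383). Leaving out primary replicate 2 or primary replicate 4 gave 10, and leaving out T3 replicate 1 gave 9. In glycolysis 5 of 15 fell (33.3%, against 24.1% of all genes) and 0 rose, or 8 fell without primary replicate 1. Tested against a 1.5-fold change, 2 genes of oxidative phosphorylation and 1 of glycolysis were lower. The transporter gene Glut1 fell most, from 81.1, 41.5 and 46.9 to 4.40, 2.64 and 4.87 CPM (-3.80 ± 0.31, adjusted p = 2.32e-06). Lactate dehydrogenase (listed as ImpL3) was at 175, 129 and 98.1 CPM in primary and 109, 36.4 and 10.9 CPM in T3. T3 replicate 1 lay within the primary range and the other T3 libraries below it, and the gene was not called (-1.35 ± 0.60, adjusted p = 0.0801). It was called without that library (-2.52, adjusted p = 0.00301), and with no filter, limma-voom (adjusted p = 0.0237) or the replicate block (adjusted p = 0.00385).

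DNA damage response genes rose: 15 of 20 were higher and 2 lower, against 23.1% and 24.1% of all genes (median log2 fold change 0.74). The lower count was 0 without T3 replicate 1 and 1 without primary replicate 1, primary replicate 4 or T3 replicate 2. Several members act in non-homologous end joining. Ku80, which binds broken ends, had 44.6, 58.2 and 49.4 CPM in primary and 209, 153 and 118 CPM in T3. Its T3 values were all more than the highest primary value (log2 fold change 1.66 ± 0.20 (SE), adjusted p = 3.61e-05). Its partner Ku70 (listed as Irbp) rose from 36.7, 39.9 and 43.0 to 107, 99.1 and 70.3 CPM (1.21 ± 0.16, adjusted p = 8.81e-05), and DNA ligase 4 (Lig4) from 12.9, 15.2 and 13.1 to 51.3, 40.01 and 33.4 CPM (1.60 ± 0.18, adjusted p = 2.63e-05). The break sensor genes rad50 and nbs rose from 111, 123 and 127 to 402, 353 and 347 CPM (1.61 ± 0.15, adjusted p = 6.01e-06) and from 41.5, 41.2 and 42.8 to 117, 114 and 88.4 CPM (1.35 ± 0.15, adjusted p = 2.06e-05). The checkpoint kinase gene grp, fly Chk1, fell slightly (403 to 305 CPM in mean, -0.40 ± 0.13, adjusted p = 0.0235), with the call lost without primary replicate 1 (adjusted p = 0.0876), T3 replicate 1 (adjusted p = 0.0890) or T3 replicate 2 (adjusted p = 0.0886). The helicase gene Blm was not called (56.6 to 60.7 CPM, 0.10 ± 0.15, adjusted p = 0.602).

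Telomere capping and retrotransposon silencing genes showed 9 of 14 higher and 1 lower. The piRNA factor genes spn-E and krimp rose from 34.0, 36.1 and 36.7 to 108, 86.9 and 88.1 CPM (log2 fold change 1.41 ± 0.12 (SE), adjusted p = 4.31e-06) and from 11.7, 16.5 and 9.57 to 45.5, 60.8 and 22.8 CPM (1.76 ± 0.34, adjusted p = 0.00128), and the Rhino gene rhi, a piRNA cluster protein of the germline, from 0.219, 0.161 and 0.188 to 2.20, 2.64 and 1.11 CPM (3.30 ± 0.73, adjusted p = 0.00299). All 3 were higher in every T3 library. The Argonaute gene AGO3 went from 3.21, 3.23 and 1.31 to 19.3, 16.7 and 5.39 CPM (2.40 ± 0.70, adjusted p = 0.0145), but was not called without primary replicate 4 (adjusted p = 0.0590) or T3 replicate 1 (adjusted p = 0.0514). The capping gene cav, fly HOAP, rose from 55.1, 66.5 and 50.5 to 95.2, 74.5 and 83.6 CPM (0.56 ± 0.14, adjusted p = 0.00582). The count of 9 was 4 without primary replicate 4 or T3 replicate 1, and the 1 lower gene was not called without primary replicate 2, primary replicate 4, T3 replicate 1 or T3 replicate 4. Defining germline markers vas, nos, yl, Vm26Aa and Cp36 summed to 5.35 to 9.12 CPM in primary and 4.53 to 12.7 CPM in T3. Of these 5, 2 were too low to test and 0 were called, with Cp36 at 0 in T3. In the wider ovary and germline list 3 of 8 tested genes fell and 0 rose, or 1 rose without primary replicate 1.

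Chromatin genes of the Polycomb and Trithorax groups fell in 10 of 19 cases and rose in 1 (2 without T3 replicate 2 or T0 replicate 2). The Polyhomeotic genes ph-p and ph-d, near-identical neighbours whose reads could be split between them, went from 357, 186 and 231 to 76.3, 72.8 and 117 CPM (-1.54 ± 0.25, adjusted p = 3.80e-04) and from 178, 99.5 and 117 to 51.1, 62.5 and 73.8 CPM (-1.07 ± 0.24, adjusted p = 0.00289). The Brahma complex gene mor fell from 624, 529 and 561 to 279.9, 303 and 316 CPM (-0.93 ± 0.18, adjusted p = 0.00120). The histone methylation gene ash2 rose from 138, 146 and 119.6 to 226, 258 and 279 CPM (0.92 ± 0.14, adjusted p = 2.28e-04), and the methyltransferase gene E(z) was not called (105 to 128 CPM in mean, adjusted p = 0.0804).

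Antimicrobial peptide genes, which fat body and blood cells switch on through the Imd and Toll pathways, were almost absent from primary cells and present in T3. Of 12 tested, 11 were higher and 0 lower (median log2 fold change 5.28), and the 17 genes of the list summed to 3.80, 4.196 and 6.66 CPM in primary and 95.05, 141 and 22.2 CPM in T3. Diptericin (Dpt, 2R, 18865765 to 18866260) had 0 counts in primary and 163, 269 and 19 in T3, at least 166-fold higher. The T3 libraries differed widely, with replicate 2 high and replicate 4 low. Its neighbour DptB had 0, 1 and 0 counts against 315, 109 and 73, a ratio of T3 to primary CPM of 549 (95% counting interval 98.0 to 21720.0), and the drosocin gene Dro 0, 0 and 2 against 145, 172 and 11, a ratio of 181 (95% counting interval 49.7 to 1502). Most of the summed T3 CPM of Dpt and Dro came from T3 replicate 2, and both genes were still called without it. Their fitted log2 fold changes, which depend on the prior count, moved from 10.49 to 9.35 without T3 replicate 2 and from 7.38 to 6.48 without T3 replicate 2 or 9.99 without primary replicate 4. That of DptB moved from 8.56 to 10.36 without primary replicate 2. The Toll target Drs rose from 0.438, 0.484 and 0.188 to 8.80, 9.69 and 1.11 CPM (log2 fold change 4.07 ± 0.83 (SE), adjusted p = 0.00174) and AttA from 0.146, 0.161 and 0.0938 to 6.82, 10.1 and 1.03 CPM (5.34 ± 1.12, adjusted p = 0.00212). Reads could be split between Dpt and DptB, AttA and AttB, or CecA1 and CecA2. In all of Dpt, DptB, Dro, Drs and AttA, T3 replicate 4 was the lowest T3 library, and it was still above every primary library.

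In the pathways that drive these peptides, 7 of 17 genes rose and 1 fell, or 2 fell without T0 replicate 2 or T0 replicate 4, with no filter, in the 6-library fit and with the replicate block. The NF-κB factor gene Rel, the end point of Imd signalling, rose from 53.5, 61.9 and 51.6 to 133, 112 and 105 CPM (log2 fold change 1.07 ± 0.14 (SE), adjusted p = 7.64e-05), with a narrow spread in T3. The sensor gene PGRP-LE rose from 21.0, 25.3 and 25.2 to 47.9, 36.7 and 38.7 CPM (0.79 ± 0.17, adjusted p = 0.00215), and the enzyme gene PGRP-LB, which dampens Imd, had 0, 2 and 0 counts in primary against 42, 10 and 7 in T3, a ratio of 32.6 (95% counting interval 8.63 to 275). Its fitted log2 fold change, which depends on the prior count, moved from 4.69 to 3.81 without T3 replicate 1 or 7.26 without primary replicate 2. The receptor gene Tl, which also acts in neurons and muscle, fell from 37.3, 20.8 and 22.1 to 1.25, 1.89 and 1.37 CPM (-4.18 ± 0.44, adjusted p = 1.63e-05).

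Blood cell genes were mostly higher, with 6 of 9 up and 1 down (0 without primary replicate 1). Hemolectin (Hml, 3L, 13846054 to 13860001), the clotting factor that marks plasmatocytes, stood at 1.39, 2.02 and 3.66 CPM in primary and 23.0, 18.0 and 12.1 CPM in T3. Every T3 library was above every primary one (log2 fold change 2.93 ± 0.48 (SE), adjusted p = 4.16e-04). The phagocytic receptor gene NimC1 rose from 0.292, 0.323 and 0.938 to 8.21, 6.542 and 3.93 CPM (3.61 ± 0.78, adjusted p = 0.00250; 4.30 without primary replicate 4), and the GATA factor gene srp had 0, 1 and 0 counts against 16, 7 and 14, a ratio of 40.9 (95% counting interval 6.89 to 1657). That ratio rests on 1 primary read, and the fitted log2 fold change moved from 4.86 to 6.65 without primary replicate 2. Peroxidasin (Pxn) went the other way, from 14.5, 4.52 and 5.82 to 1.83, 2.26 and 2.22 CPM (-1.98 ± 0.55, adjusted p = 0.0112), and was not called without primary replicate 1 (-1.27, adjusted p = 0.0745). The 5 defining markers (Hml, NimC1, eater, He, Pxn) summed to 6.86 to 16.4 CPM in primary and 19.2 to 34.5 CPM in T3, with He at 0 in primary. The part of host blood cells in the masses was not tested.

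Basement membrane genes rose beside them, with 7 of 12 higher and 1 lower. The count lower was 0 without primary replicate 1. It was 2 without T0 replicate 2 or T0 replicate 4, with no filter and in the 6-library fit. Collagen IV genes Cg25C (Col4a1) and vkg went from 6.43, 6.62 and 11.6 to 36.7, 35.0 and 29.4 CPM (2.04 ± 0.52, adjusted p = 0.00656) and from 3.87, 4.196 and 4.50 to 22.0, 20.8 and 16.2 CPM (2.23 ± 0.54, adjusted p = 0.00499). The laminin genes LanA and LanB1 rose from 9.49, 10.0 and 12.7 to 54.1, 46.7 and 30.2 CPM (2.03 ± 0.37, adjusted p = 8.95e-04) and from 18.7, 17.4 and 16.6 to 73.6, 38.7 and 52.9 CPM (1.65 ± 0.33, adjusted p = 0.00155), and papilin (Ppn) from 12.5, 7.75 and 13.2 to 81.8, 86.9 and 56.4 CPM (2.75 ± 0.44, adjusted p = 3.28e-04). All 5 lay apart between the groups. SPARC (listed as BM-40-SPARC), another matrix protein gene of blood cells and fat body, was at 29.3, 19.8 and 21.7 CPM in primary and 13.3, 15.3 and 10.1 CPM in T3. It was not called (-0.87 ± 0.45, adjusted p = 0.131). It was called lower without T0 replicate 2 (adjusted p = 0.0248) or T0 replicate 4 (adjusted p = 0.0352). The 6-library fit (adjusted p = 0.00776) and the fit with no filter (adjusted p = 0.00846) also called it lower.

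Markers of other host tissues were low. The 6 fat body markers (Yp1, Yp2, Yp3, apolpp, Lsp2, fit) summed to 8.03 to 15.4 CPM in primary and 10.6 to 87.8 CPM in T3, with 3 higher and Lsp2 at 0 in primary. Yolk protein gene Yp2 had 0.438, 0.968 and 1.78 CPM in primary and 1.17, 15.7 and 4.70 CPM in T3, and the groups overlapped. It was called (2.74 ± 0.82, adjusted p = 0.0163) but not without T3 replicate 2 (1.49, adjusted p = 0.107), primary replicate 1 (2.38, adjusted p = 0.0686) or primary replicate 2 (2.70, adjusted p = 0.0551). Over the wider fat body and lipid list 5 of 10 rose and 2 fell, and 2 rose when any 1 of those same 3 libraries was left out (1 fell without primary replicate 1). The lipase gene bmm, which frees stored fat in many cells, rose from 40.5, 26.6 and 31.6 to 104, 92.0 and 89.1 CPM (log2 fold change 1.53 ± 0.16 (SE), adjusted p = 1.75e-05). The 6 muscle markers summed to 0.968 to 3.29 CPM in primary and 1.51 to 3.81 CPM in T3. Of these, 4 were too low to test and 0 were called, with up and wupA at 0 in primary. The 5 gut markers summed to 0 to 0.219 CPM in primary and 1.83 to 2.89 CPM in T3, and these ranges did not overlap. Of the gut markers, 4 were too low to test and 0 were called, with Amy-p, alphaTry and betaTry at 0 in primary. In the muscle list 1 of 6 tested genes fell and 0 rose. In the gut list the 1 called gene of 2 tested was caup. The count of gut genes called higher, 0, became 1 when any library other than T3 replicate 1 was left out, and 4 with no filter.

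Genes of tracheae, the air tubes that grow into tissues, moved in both directions, with 2 of 6 higher and 2 lower. The chitin deacetylase gene verm rose from 0.803, 0.0807 and 0.188 to 26.8, 3.15 and 5.13 CPM (log2 fold change 4.95 ± 0.99 (SE), adjusted p = 0.00155), with T3 replicate 1 far above the others (3.46 without it and 6.39 without primary replicate 1). Trachealess (trh), the master factor of tracheal cells, fell from 5.26, 3.31 and 5.44 to 0.807, 0.252 and 0.513 CPM (-3.06 ± 0.47, adjusted p = 2.32e-04). The 3 tracheal markers (trh, verm, serp) summed to 3.39 to 7.81 CPM in primary and 5.66 to 33.0 CPM in T3.

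**Figure D5:**
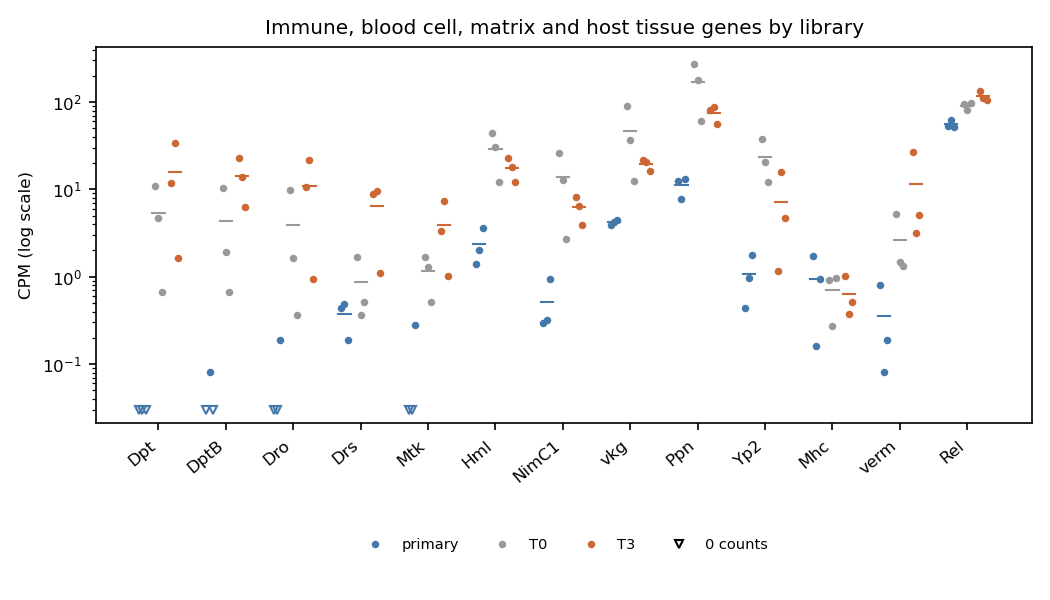
CPM on a log axis for immune, blood cell, matrix and host tissue genes, with 1 point per library of primary, T0 and T3, open triangles at the bottom for libraries with 0 counts, and a line at the mean where no library of a group is at 0. The T3 points of Dpt and Dro are the most widely spread of the peptide genes, those of Hml, vkg, Ppn and Rel lie together above primary, and the muscle gene Mhc is low in all groups.

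Heat shock and chaperone genes were lower in T3 than in primary: 9 of 12 were lower and 0 higher (median log2 fold change -1.63). The list summed to 25523, 26735 and 16813 CPM in primary and 10349, 13318 and 10257 CPM in T3. In T0, which was not sorted, it summed to 18125, 11343 and 10608 CPM in replicates 2, 3 and 4. Hsp83, the fly Hsp90, fell from 8543, 7978 and 4902 to 2106, 2642 and 1422 CPM (log2 fold change -1.80 ± 0.32 (SE), adjusted p = 6.81e-04) and the small chaperone gene Hsp27 from 2114, 2450.1 and 1319 to 494, 629.7 and 593 CPM (-1.78 ± 0.29, adjusted p = 3.51e-04). Hsp67Bc, a small heat shock gene, fell from 77.8, 71.7 and 27.6 to 1.03, 1.13 and 0.513 CPM (-6.06 ± 0.62, adjusted p = 1.30e-05). Primary replicate 4 was the lowest of its group for these 3. Hsp70Bb, which may share reads with other Hsp70 copies, went from 286, 242 and 165 to 85.6, 86.7 and 81.4 CPM (-1.45 ± 0.32, adjusted p = 0.00316). The count of 9 was 5 without primary replicate 2 and 5 without T3 replicate 4.

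The activity-induced genes sr and Hr38 also fell, sr from 30.1, 23.96 and 24.4 to 0.220, 0 and 0.0855 CPM (-7.66 ± 0.43, adjusted p = 1.83e-07; -8.72 without T3 replicate 1) and Hr38 from 27.2, 12.6 and 26.1 to 3.08, 1.76 and 3.51 CPM (-2.95 ± 0.40, adjusted p = 1.03e-04). The list had 2 of 5 lower and 1 higher, the Fos gene kay. Dissociation and sorting were done in primary only and cannot be told apart from the other differences between the groups. Neuronal markers fell in the same libraries, and their part was not tested. Genes of sex and dosage compensation had 1 of 10 higher and 1 lower (2 higher without T3 replicate 2, 2 lower without primary replicate 2 and 3 lower without T3 replicate 4): fru, a BTB factor gene with sex-specific products, rose from 213, 193 and 218 to 378, 373 and 469 CPM (0.96 ± 0.14, adjusted p = 1.65e-04) and msl-1, of the male dosage compensation complex, fell (139.6 to 82.6 CPM in mean, -0.76 ± 0.16, adjusted p = 0.00272).

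The 15 largest gains among called genes with at least 5 CPM and groups that did not overlap held few genes of the neural lists. Beside lin-28, verm, Dpt, DptB and Dro they included NimC4, an engulfment receptor gene, from 0.876, 1.21 and 0.845 to 19.0, 19.5 and 7.18 CPM (log2 fold change 3.94 ± 1.11 (SE), adjusted p = 0.0116; adjusted p = 0.0707 with limma-voom), and magu, a secreted matrix protein gene, from 3.21, 2.26 and 4.03 to 82.4, 46.8 and 15.2 CPM (3.93 ± 0.81, adjusted p = 0.00189; 3.29 without T3 replicate 1). The UDP-glycosyltransferase genes Ugt86Da and Ugt86Di, of detoxification, rose from 1.97, 1.05 and 1.60 to 35.3, 29.9 and 15.7 CPM (4.12 ± 0.52, adjusted p = 5.84e-05) and from 0.219, 3.23 and 0.657 to 25.7, 22.0 and 13.2 CPM (3.88 ± 0.68, adjusted p = 6.12e-04; 5.57 without primary replicate 2). Another 6 carry a bare CG number in the deposited table. Of these, the adhesion gene bdl (listed as CG16857) had 0.511, 0.645 and 0.375 CPM in primary and 17.7, 14.1 and 1.45 CPM in T3, with T3 replicate 4 nearest to primary (4.40 ± 0.97, adjusted p = 0.00282). ImpE1, an ecdysone-induced gene among the largest losses, had 443, 189 and 238 counts in primary against 1, 1 and 0 in T3, a ratio of 394 (95% counting interval 109 to 3258).

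Cherub (listed as CR43283, 3R, 11247631 to 11256123) is a long noncoding RNA known from type II neuroblast tumours. It took the most counts of any gene in each library, at 33829, 34319 and 33626 CPM in primary and 29079, 40565 and 20134 CPM in T3, overlapped between the groups and was not called (-0.18 ± 0.28, adjusted p = 0.623). Among the 10 most abundant called genes, the noncoding RNA CR34335 rose from 1549.9, 3404 and 4206 to 8243, 9695 and 6848 CPM (1.44 ± 0.30, adjusted p = 0.00209) and the ATF4 gene crc, a factor of the amino acid and endoplasmic reticulum stress response, from 865, 1036 and 945 to 2491, 2153 and 1952 CPM (1.21 ± 0.16, adjusted p = 8.12e-05). The tubulin gene alphaTub84B fell from 4561, 4950.4 and 5114 to 2499, 2865 and 2664 CPM (-0.87 ± 0.16, adjusted p = 8.78e-04), as did the chromatin decondensation gene Df31, from 5176, 5934 and 5906 to 3333, 3329 and 3614 CPM (-0.73 ± 0.17, adjusted p = 0.00479). The list also held Pex7, ytr and CR42862, which rose, and His3.3B, which fell; the His3.3B call was lost without primary replicate 2 (adjusted p = 0.0710), primary replicate 4 (adjusted p = 0.0951), T3 replicate 2 (adjusted p = 0.120) or T3 replicate 4 (adjusted p = 0.111).

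By chromosome arm, the called shares on 2L, 2R, 3L, 3R and X stayed within 21.8% to 25.2% higher and 22.2% to 25.0% lower. On the small chromosome 4, 16.1% of 87 genes were higher and 33.3% lower. Of 415 noncoding RNA genes, 28.9% were higher and 14.5% lower. Of 8498 protein-coding genes, 22.9% were higher and 24.6% lower. These shares carry no test.

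The T3 libraries also differed among themselves. Of 6387 genes that averaged 10 CPM or more in T3, 54 had a highest library at least 3-fold above the lowest, where 26 of 6517 did in primary. The median coefficient of variation was 11.1% in T3 and 13.7% in primary. Replicate 1 was the highest for 24 of the 54 genes, replicate 2 for 19 and replicate 4 for 11. Replicate 4 was the lowest for 27. Antimicrobial peptide, yolk protein and lactate dehydrogenase genes were among them, with the values given above.

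Between the fourth and the first allograft (T0, grown for 8 to 10 days in the same host strain and not sorted), the test of the difference called 0 of 9082 genes. At an unadjusted p under 0.05, 746 genes passed, 269 higher and 477 lower in T3, and the smallest adjusted p was 0.330. DESeq2 called 9 and limma-voom 0. The median SE of a log2 fold change was 0.193 here and 0.194 against primary, and the median absolute log2 fold change was 0.190 here and 0.505 against primary. A p that misses the threshold does not show that the allografts were alike.

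The authors' deposited table calls 26 genes between T3 and T0 (0.290% of those it tests), 21 lower and 5 higher in T3. The Pax6 gene toy, low in all allografts, has a log2 fold change of -2.30 there (adjusted p = 3.83e-06 in the authors' deposited table). Its level was 4.24 ± 1.75 CPM in T0 and 0.844 ± 0.569 CPM in T3 (-2.30 ± 0.44 SE here, not called). The optic lobe gene Vsx1, at 5.02 ± 1.42 CPM in T0 and 0.847 ± 0.454 CPM in T3, has -2.50 in the authors' deposited table (adjusted p = 5.10e-05). The cytochrome P450 gene Cyp4g1, an oenocyte and fat body gene, was at 55.9 ± 15.4 CPM in T0 and 10.8 ± 8.01 CPM in T3, and the authors' deposited table gives -2.39 (adjusted p = 2.88e-05). Among the 5 higher genes, the SoxB gene D (Dichaete) was at 98.0 ± 39.4 CPM in T0 and 234 ± 90.8 CPM in T3, with 1.25 (adjusted p = 0.0215) in the authors' deposited table. Drs, described above, was at 0.860 ± 0.731 CPM in T0 and 6.53 ± 4.72 CPM in T3, with 2.94 (adjusted p = 0.0474) in the authors' deposited table.

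For some genes that were called between T3 and primary, the T0 values are given side by side, with no test of likeness. Chinmo had 496, 481 and 689 CPM and lin-28 98.6, 53.1 and 35.2 CPM in T0 replicates 2, 3 and 4. Ase had 43.0, 30.7 and 44.2, pros 98.6, 109 and 148 and nerfin-1 24.6, 36.1 and 43.0 CPM. Antp had 0, 2 and 4 counts and oc 1, 3 and 4 counts in T0, where T3 had 0, 0 and 1 and 0, 0 and 0. The fat body markers summed to 99.2 to 241 CPM in T0 against 10.6 to 87.8 CPM in T3, and the ranges did not overlap. The blood cell markers summed to 17.1 to 81.4 CPM in T0 and 19.2 to 34.5 CPM in T3, and overlapped.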

How the data were processed

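Per the labels, polyadenylated RNA was amplified for 13 cycles and read as single 75 nt reads, giving 9 libraries. Tools listed, without roles, are HISAT2 2.1.0, bedtools 2.25.0, HTSeq and edgeR, with the build dm6, per the submitters' processing notes. Neither the annotation release nor the strand setting is given in the sources used here, so a gene and its antisense or overlapping partner may share reads.

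The authors deposited raw read counts per gene, 0 of them on lines without a gene name. The deposited log2 fold changes and p-values of the authors were used only to count and print the authors' calls, and 13 other columns of sample values per table were not used. Depth was 7932772 to 14093032 counts per library.

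In R 4.3.3, edgeR 4.0.16 was run on the 9 libraries in 1 fit with TMM factors, filterByExpr (minimum count 10) and the quasi-likelihood test. Calls used a two-sided Benjamini-Hochberg adjusted p under 0.05 over all 9082 genes. SE is the log2 fold change over the square root of F. The script was tested on simulated data. A group at 0 counts was set to a floor of 3 counts over the group, and 1 to 3 counts carry an exact (Clopper-Pearson) 95% interval; both cover counting error only. Replicate pairs gave a chi-square over its degrees of freedom of 15.4 to 57.8, far above sampling noise.

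Members and the 40 lists (615 members, 67 matched by synonym) were chosen with earlier results of these data known, and no set test was run. Named genes were the 15 largest gains and losses, per list up to 5 called members, all that went against the list's majority and 2 uncalled ones, 20 fixed genes, the 10 most abundant called genes, and list members at 0 in a group. Genes named from the authors' table and the T3 library spread were chosen after their values were seen. Positions are from the Ensembl annotation of dm6. Alternatives were other scalings and filters, DESeq2 1.42.0, limma-voom (limma 3.58.1), a 6-library fit, a fit with the replicate block, testing against 1.5-fold, and leaving out each library.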

Additional observations from a re-analysis of the deposited data

How the results depend on the processing

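The counts of genes called between T3 and primary, 2097 higher and 2187 lower, stayed within 1.5 times under the other scalings, filters and tools (2049 to 2271 higher and 2105 to 2342 lower). A test against a 1.5-fold change called 904 higher and 1102 lower. Leaving out 1 library gave 1645 to 2270 higher and 1847 to 2411 lower. Of 226 called named genes, 197 kept their call under every alternative other than the 1.5-fold test, and 0 of them changed sign. Log2 fold changes of 8 uncalled genes changed sign. With limma-voom moody was at 0.0211. Leaving out 1 library gave -0.458 to 0.0383 for CR43283, -0.00866 to 0.140 for CrebB, -1.06 to 0.312 for Mhc, -0.346 to 0.123 for Mmp1, -0.281 to 0.123 for moody, -0.0385 to 0.188 for tll, -0.952 to 2.94 for yl and -0.391 to 0.0407 for zfh2. Of 71 uncalled named genes, 48 passed under at least 1 alternative. Between T3 and T0 the count of 0 became 96 with no filter, 9 with DESeq2 and 5 with the replicate block, and 0 to 5 when 1 library was left out (5 without T3 replicate 2). The cause was not tested. Replicate numbers are shared by T3 and primary. Same-numbered libraries correlated in their deviations from the group means at 0.121, 0.150 and 0.0101 for numbers 1, 2 and 4. Each primary library correlated with T3 libraries of other numbers at -0.189 to 0.0654, -0.0867 to -0.0592 and -0.0831 to 0.0728, in the same order. These values do not settle whether the numbers pair the libraries, and the main fit did not pair them. With the replicate number as a block, 2102 genes were higher and 2247 lower. Depth limits genes near 0, where 1 to 3 reads decide a ratio.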
